A study of Homo sapiens with 4 samples.

Results

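TRPV2, GDF2, OR4D2, TMEM253, TMEM178B, IL1A, CEACAM3, CACNG8, FOXN2 and DEFB118 are 10 genes with more ribosome footprints under erythromycin in RPL4 mutant and in wild type HEK293 cells. They were chosen on those measured differences, so that their erythromycin ratios are a description, with no test, and were matched by GENCODE release 29 symbol. All 10 were found, as 1 transcript each of 16292 listed transcripts, and 10 of 10 were among the 9612 transcripts tested, whose levels averaged 5 RPKM or more across the 4 libraries. HEK293 is an established human embryonic kidney line. Ribosome footprints, the mRNA pieces covered by ribosomes, were sequenced in 4 groups with 1 library each: RPL4 mutant with erythromycin, RPL4 mutant with no erythromycin, wild type with erythromycin and wild type with no erythromycin. Per the labels' protocols, the lines stably expressed GFP, wild type L4 or its Δloop mutant. Lentiviruses then brought in a hairpin RNA that targets RPL4, or a scrambled control, and cycloheximide or lactimidomycin was given before harvest. Which of these each library had, and the dose and time of erythromycin, the labels do not say.

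Erythromycin is a macrolide that binds in the peptide exit tunnel of bacterial ribosomes and stops some nascent chains there. The protein RPL4 reaches into the same tunnel of the cytosolic ribosome with an extended loop. The 10 genes are mostly known from specialised tissues. TRPV2 is a cation channel, OR4D2 an odorant receptor, CACNG8 an auxiliary subunit of AMPA-type glutamate receptors, and CEACAM3 a granulocyte receptor for bacteria. GDF2 (BMP9) is a ligand made in liver that signals through ACVRL1 on endothelium, IL1A an inflammatory cytokine, and DEFB118 a beta-defensin of the epididymis. FOXN2 is a forkhead transcription factor, and TMEM253 and TMEM178B are transmembrane proteins.

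The libraries held 993461 reads in the mutant with erythromycin, 604506 in the mutant without it, 2555613 in wild type with it and 2965243 in wild type without it. RPL4 itself was at 1439 RPKM with and 1707 without erythromycin in the mutant, and at 2586 with and 2515 without in wild type; which form of RPL4 these reads come from is not resolved. Whole reads were recovered from RPKM (reads per kilobase of coding sequence, scaled to library size), and intervals in brackets are 95% counting intervals, which cover counting error only. Of 9 HEK293 markers all were listed, VIM and KRT8 among the highest (637 and 232 RPKM in the mutant with erythromycin). NEFM, at most 0.732 RPKM, and PAX2, at most 2.69, were near 0. Of 7 blood markers 5 were listed, and their summed level was 138 RPKM in the mutant with and 118 without the drug, and 96.2 in wild type with and 9.38 without it. ITGB2 made up nearly all of it, and the others together were at 1.61, 3.73, 2.31 and 1.06 RPKM in that order of libraries. PTPRC and LYZ were listed in no library. Markers of fibroblasts, endothelium, hepatocytes and keratinocytes summed to at most 11.4 RPKM in any library. The part of other cells in the results was not tested.

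Together the 10 genes took a larger share of footprints under erythromycin in both genotypes. Their 6726 reads in the mutant with the drug were 0.677% of the library (95% Wilson interval 0.661% to 0.693%), and their 556 reads without it were 0.0920% (0.0846% to 0.0999%). In wild type they had 4284 reads with the drug, or 0.168% (0.163% to 0.173%), and 1294 without it, or 0.0436% (0.0413% to 0.0461%). OR4D2 alone held 40.1% of these reads in the mutant with the drug and 26.4% without it. In wild type it held 27.2% with and 27.8% without. The median level of the 10 was 442 RPKM with and 68.6 RPKM without erythromycin in the mutant, and 86.7 with and 23.5 without in wild type. The median tested gene was at 26.7 and 25.5 RPKM in the mutant and at 24.7 and 24.9 RPKM in wild type. The median of the set was thus near that of tested genes in untreated wild type cells, and far above it in treated mutant cells. The single genes were spread widely. In untreated wild type they ran from 3.72 RPKM (IL1A) to 131 (OR4D2), with none between DEFB118 at 9.97 and TMEM253 at 37.1. In the treated mutant CACNG8, at 28.4 RPKM, was near the median tested gene. The genes were chosen on these same libraries. A larger amount of each mRNA, more ribosomes on it and a change in which cells are present cannot be told apart in these libraries.

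**Figure D1:**
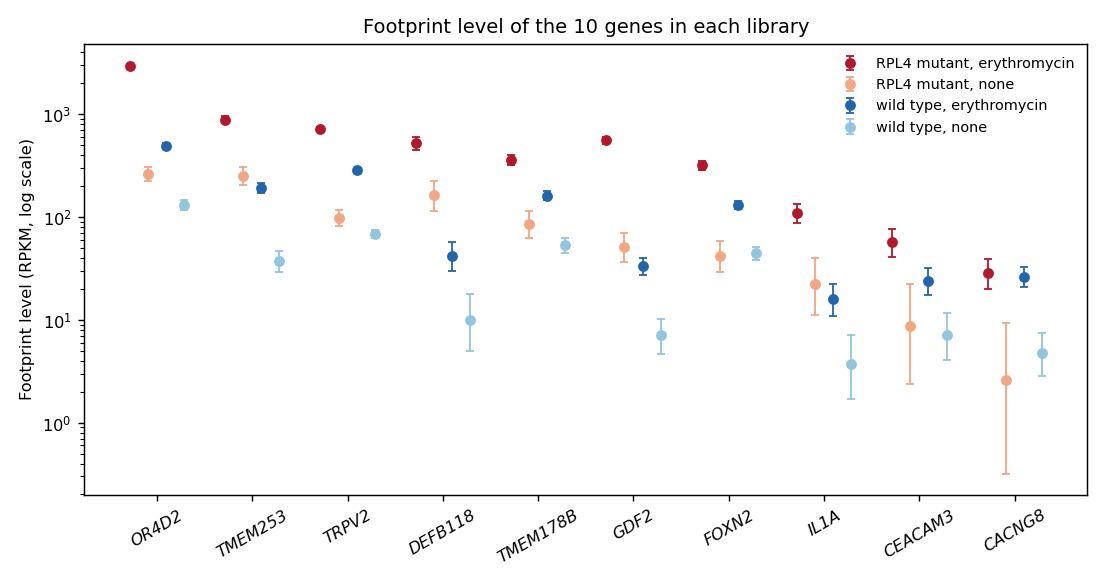
Footprint level (RPKM per transcript, log axis) of the 10 genes, ordered by mean level, in the 4 libraries; points are single libraries and bars are 95% Poisson counting intervals. For each gene the erythromycin library lies above the untreated one of the same genotype, from OR4D2 at 2940.2 RPKM against 263 in the mutant down to CACNG8 at 28.4 against 2.59.

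The footprints were counted over the coding sequences, whose first 15 codons are shown to set the genes side by side where translation begins. They are from GENCODE 29 (GRCh38), 5′ to 3′, with the annotated first codon in capitals. CACNG8 is annotated to begin at a codon other than ATG.
TRPV2: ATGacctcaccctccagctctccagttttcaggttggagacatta
GDF2: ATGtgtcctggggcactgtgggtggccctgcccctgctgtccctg
OR4D2: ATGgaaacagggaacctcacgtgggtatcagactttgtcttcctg
TMEM253: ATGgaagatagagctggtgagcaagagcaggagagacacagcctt
TMEM178B: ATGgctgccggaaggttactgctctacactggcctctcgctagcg
IL1A: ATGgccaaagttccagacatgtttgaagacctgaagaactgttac
CEACAM3: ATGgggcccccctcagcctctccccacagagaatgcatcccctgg
CACNG8: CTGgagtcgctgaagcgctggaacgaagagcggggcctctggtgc
FOXN2: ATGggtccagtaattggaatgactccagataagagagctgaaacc
DEFB118: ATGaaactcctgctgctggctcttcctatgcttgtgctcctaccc

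Among the membrane receptors and channels, OR4D2 (chromosome 17, 58166982 to 58171116, plus strand, GRCh38; 924 coding bases in 1 coding exon) had the highest level. Its footprints stood at 2940.2 RPKM with erythromycin and 263 without in the mutant, and at 493 with and 131 without in wild type. Treated mutant cells stood apart from the other libraries, and OR4D2 was there the 63rd highest of 14394 listed transcripts, against the 672nd of 13354 without the drug. In wild type it ranked 405th with and 1389th without the drug. The log2 ratio of erythromycin over none, on the log2(RPKM + 1) scale centred on the median tested gene, was 3.42 [3.19, 3.68] in the mutant and 1.91 [1.75, 2.10] in wild type. The bracketed interval is that of the read ratio itself, with no 1 RPKM added.

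TRPV2 (chromosome 17, 16415542 to 16437003, plus strand; 2295 coding bases) had the most reads of the 10 in wild type. It stood at 723 RPKM (1648 reads) with erythromycin and 98.0 (136 reads) without in the mutant. Wild type cells had 287 RPKM (1682 reads) with and 69.1 (470 reads) without. The treated library was higher in both genotypes and the untreated libraries differed less, at log2 ratios of 2.82 [2.58, 3.09] in the mutant and 2.05 [1.92, 2.22] in wild type.

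CACNG8 (chromosome 19, 53963040 to 53990215, plus strand; 1278 coding bases) was the lowest of the 10 on average. It had 36 reads with erythromycin and 2 without in the mutant, or 28.4 and 2.59 RPKM. Wild type cells had 86 reads with and 18 without, or 26.3 and 4.75 RPKM. The drug-treated libraries of both genotypes lay close together. The log2 ratio was 2.98 [1.44, 6.50] in the mutant, where the wide interval comes from the 2 reads, and 2.26 [1.74, 3.31] in wild type. With a pseudocount of 5 RPKM the ratio was 2.09 in the mutant and 1.70 in wild type, the second below its interval.

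CEACAM3 (chromosome 19, 41796437 to 41811553, plus strand; 759 coding bases) was likewise low, at 57.0 RPKM with and 8.72 without erythromycin in the mutant, from 43 and 4 reads. Wild type cells had 23.7 RPKM with and 7.11 without, from 46 and 16 reads. The untreated libraries of the genotypes had overlapping counting intervals. Its log2 ratio was 2.53 [1.20, 4.60] in the mutant and 1.62 [0.91, 2.67] in wild type.

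The transmembrane protein gene TMEM253 (chromosome 14, 21098937 to 21103724, plus strand; 654 coding bases) was at 885 RPKM with and 253 without erythromycin in the mutant, and at 193 with and 37.1 without in wild type. The untreated mutant library was above the treated wild type one, with overlapping counting intervals. The log2 ratio was 1.75 [1.45, 2.08] in the mutant and 2.36 [2.02, 2.78] in wild type. TMEM178B (chromosome 7, 141074232 to 141480380, plus strand; 885 coding bases) was at 359 RPKM with and 86.0 without the drug in the mutant. Wild type levels were 162 with and 53.3 without. Its log2 ratios, 2.00 [1.56, 2.49] in the mutant and 1.60 [1.33, 1.91] in wild type, had overlapping intervals.

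Among the secreted proteins, GDF2 (chromosome 10, 47322490 to 47326270, plus strand; 1290 coding bases) had 717 reads with and 40 without erythromycin in the mutant, or 559 and 51.3 RPKM. Wild type cells had 110 reads with and 27 without, or 33.4 and 7.06 RPKM. GDF2 in untreated mutant cells was above its level in treated wild type cells, with overlapping counting intervals. The log2 ratio was 3.37 [2.93, 3.89] in the mutant and 2.11 [1.64, 2.92] in wild type, the second at 1.44 with all libraries thinned to the same number of reads.

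IL1A (chromosome 2, 112773915 to 112784590, minus strand; 816 coding bases) had the lowest wild type level of the 10, with a counting interval that overlapped that of the next gene. It was at 109 RPKM (88 reads) with and 22.3 (11 reads) without erythromycin in the mutant. Wild type levels were 15.8 (33 reads) with and 3.72 (9 reads) without. The log2 ratios, 2.18 [1.32, 3.28] in the mutant and 1.85 [1.01, 3.35] in wild type, had overlapping intervals. In thinned reads the wild type ratio was 0.79, under 2-fold. DEFB118 (chromosome 20, 31368618 to 31373923, plus strand; 372 coding bases, the shortest of the 10) was at 525 RPKM (194 reads) with and 165 (37 reads) without the drug in the mutant. In wild type it was at 42.1 (40 reads) with and 9.97 (11 reads) without. Both mutant libraries lay above both wild type ones. Its log2 ratio was 1.61 [1.11, 2.17] in the mutant and 1.99 [1.10, 3.20] in wild type.

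FOXN2 (chromosome 2, 48314710 to 48379294, plus strand; 1296 coding bases), the transcription factor, was at 318 RPKM (410 reads) with and 42.1 (33 reads) without erythromycin in the mutant. Wild type cells had 131 RPKM (435 reads) with and 44.5 (171 reads) without. The counting intervals of the untreated libraries overlapped. Its log2 ratio was 2.84 [2.35, 3.42] in the mutant and 1.56 [1.32, 1.84] in wild type.

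These ratios are what chose the genes, and they are set here against all tested genes as a description. All 10 were at least 2-fold higher with erythromycin in the mutant, where 6.22% of tested genes were, and 10 in wild type, where 1.73% were. In both genotypes at once 43 genes, or 0.447%, were at least 2-fold higher, and the 10 make up 23.3% of them. Ranked by the weaker of the responses, the 10 take places 1 to 13 with MTRNR2L13, BSN and ST7 among them. FOXN2, at rank 13, had a weaker response of 1.56, and C3, the next gene, one of 1.48. CDH26 followed at 1.39. The 10 had a median of 881 reads over the 4 libraries (109 to 4370), against 97.5 for the other genes of the 43 with known reads and 265 for all tested genes. MTRNR2L13, BSN, ST7, C3 and CDH26 were named after their values were seen.

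**Figure D2:**
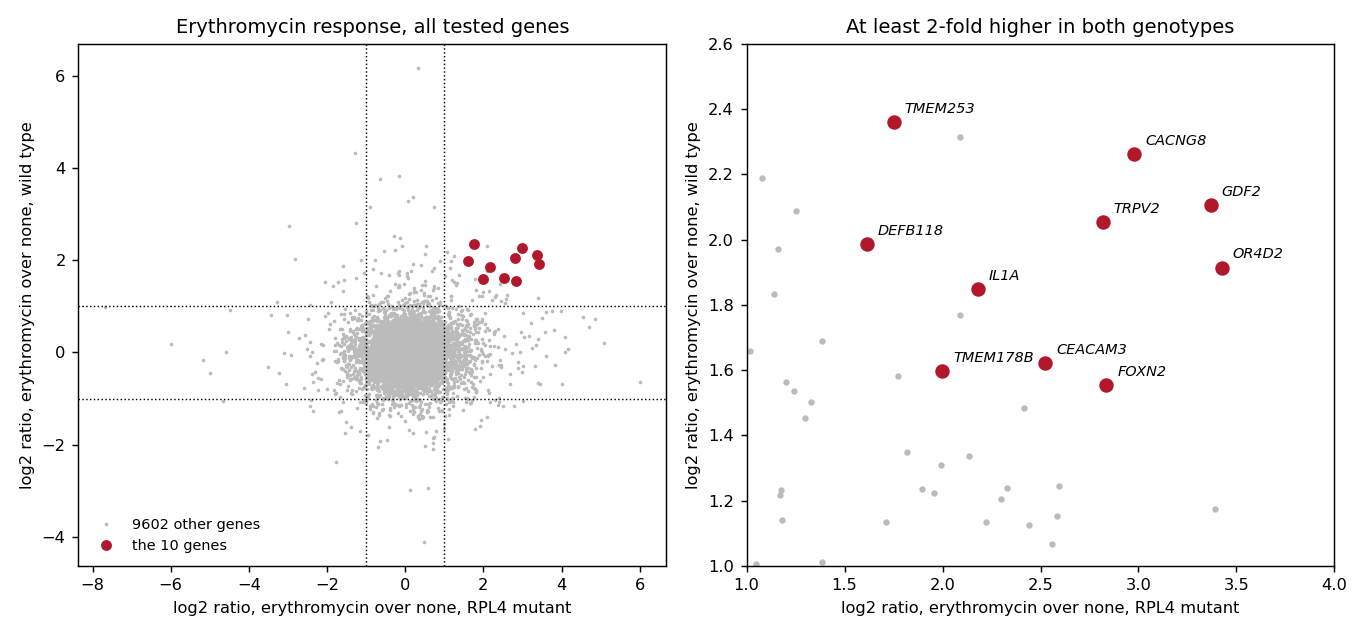
Log2 ratio of erythromycin over none in the RPL4 mutant (x axis) and in wild type (y axis), centred on the median of 9612 tested genes, 1 library per group; the 10 genes are red and all others grey, dotted lines mark 2-fold. The right panel enlarges the region of at least 2-fold in both genotypes, where the 10 genes run from 1.61 to 3.42 in the mutant and from 1.56 to 2.36 in wild type.

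The response was larger in the mutant for 8 of the 10, against 50.3% of all tested genes. This difference is fixed in part by the same ratios that chose the genes. Counting intervals of the difference (mutant minus wild type, Wald, from reads) lay above 0 for OR4D2 (1.51 [1.21, 1.80]), FOXN2 (1.28 [0.72, 1.86]), GDF2 (1.26 [0.38, 1.90]) and TRPV2 (0.76 [0.47, 1.05]). They lay below 0 for TMEM253 (−0.61 [−1.12, −0.16]). In thinned reads the TMEM253 ratios were closer, at 1.71 in the mutant and 2.00 in wild type. For TMEM178B (0.40 [−0.13, 0.92]), IL1A (0.33 [−1.27, 1.52]), CEACAM3 (0.90 [−0.79, 2.59]), CACNG8 (0.72 [−1.27, 3.10]) and DEFB118 (−0.37 [−1.56, 0.62]) the interval held 0. The depth of the untreated mutant library, with 2 to 147 reads per gene, limits this comparison.

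Setting the mutant against wild type describes how the genes differ by genotype, a comparison that shares its libraries with the choice. The choice favours genes that are high in the treated mutant library. The counts with erythromycin are therefore set in part by the choice. With erythromycin 9 of the 10 were at least 2-fold higher in the mutant, where 7.02% of tested genes were, and without it 5 were, where 5.29% of tested genes were. The same 5, DEFB118, GDF2, IL1A, OR4D2 and TMEM253, were at least 2-fold higher in both treatments, against 2.23% of tested genes. Of the 43 genes at least 2-fold higher with erythromycin in both genotypes, 15 were so, these 5 included. The log2 ratios of the others of the 43 ran from −1.39 (LRRC6) to 3.97 (ST7) with the drug. Without it they ran from −2.63 (RNF24) to 3.80 (ST7). A higher level in the mutant was thus not particular to the 10. LRRC6 and RNF24 were named after their values were seen. The median log2 ratio of the 10 was 1.70 with and 0.86 without the drug, against 0 for all tested genes by centring. As each group is a single library, these differences have no replicate check and no p is given.

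DEFB118 was 11.7-fold higher in the mutant with erythromycin (log2 ratio 3.55 [3.08, 4.11]) and 15.4-fold without it (3.94 [3.07, 5.19]), the second at 4.93 on the log2 scale in thinned reads. GDF2 was 15.6-fold higher with the drug (3.97 [3.71, 4.31]) and 6.61-fold without it (2.72 [2.15, 3.65]). TMEM253 was 4.38-fold (2.13 [1.94, 2.34]) and 6.78-fold (2.76 [2.34, 3.25]) higher, and IL1A 6.24-fold (2.64 [2.12, 3.34]) and 5.02-fold (2.33 [1.20, 4.06]), the second at 1.07 on the log2 scale in thinned reads and 1.67 with a pseudocount of 5 RPKM. For these 4 genes the mutant was above wild type without the drug too.

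OR4D2 stood at 2.51 [2.41, 2.61] with erythromycin and 1.02 [0.74, 1.31] without. Its 2-fold call without the drug is at the threshold, and it was at 0.93 in thinned reads. TRPV2 was at 1.27 [1.17, 1.37] with and 0.52 [0.24, 0.81] without, and TMEM178B at 1.08 [0.87, 1.31] and 0.70 [0.20, 1.20]. FOXN2 was at 1.21 [1.02, 1.41] with and −0.05 [−0.64, 0.49] without, and CEACAM3 at 1.17 [0.57, 1.84] and 0.29 [−1.72, 1.95]. CACNG8 alone had intervals that held 0 in both, at 0.04 [−0.56, 0.62] with and −0.65 [−4.00, 1.21] without, so that a difference was not detectable at this depth. The signs of CACNG8 with the drug and of FOXN2 without it changed with the settings, over −0.06 to 0.12 and −0.08 to 0.23.

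**Figure D3:**
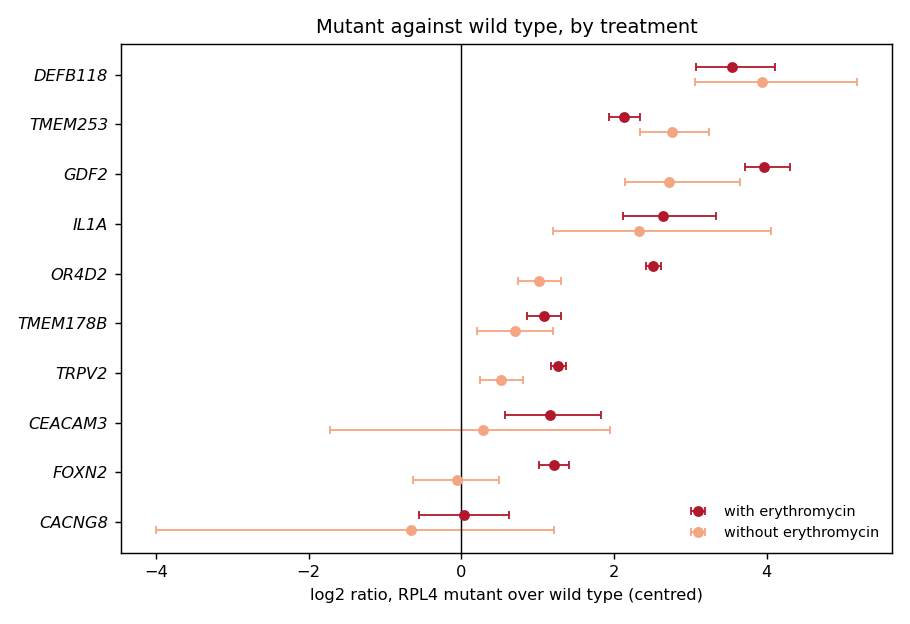
Log2 ratio of RPL4 mutant over wild type for each of the 10 genes with erythromycin (dark) and without it (light), with 95% counting intervals from 1 library per group, genes ordered by the ratio without the drug. DEFB118, TMEM253, GDF2 and IL1A lie above 2 in both treatments, while CACNG8 lies at 0.04 and −0.65 with intervals across 0.

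Related genes were taken from lists of their families and pathways. Of 263 listed genes in 11 such lists, 58 were tested, and 0 of these 58 reached 2-fold in both genotypes, where 0.447% of all tested genes did, so that a count of 0 is near the background. In the mutant 9 of the 58 were at least 2-fold higher (15.5%, against 6.22% of tested genes) and in wild type 4 (6.9%, against 1.73%). Their median log2 ratio was 0.01 in the mutant and 0.04 in wild type, against 0 for all tested genes.

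Among the other TRP channels 23 were listed and 4 tested. PKD2, a calcium-permeable channel of cilia, was at 33.6 RPKM with and 15.4 without erythromycin in the mutant (1.03 [0.45, 1.75]). In wild type it was at 9.42 with and 5.68 without (0.66 [0.20, 1.30]). The lysosomal channels MCOLN3 (1.01) and MCOLN2 (1.08) had mutant intervals that held 0, and MCOLN1 was at −0.69 in the mutant and −0.25 in wild type. Summed over the 23 genes, the share of reads was 1.40-fold [1.11, 1.78] higher with the drug in the mutant and 1.05-fold [0.890, 1.23] in wild type. TRPV2 alone had 1648 reads in the mutant with the drug and the 23 together 244.

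Odorant receptors other than OR4D2 were listed 99 times, with 5 tested. Their 2820 reads in the mutant with erythromycin and 889 without gave 1.93-fold [1.79, 2.08], while 1494 and 2016 reads in wild type gave 0.860-fold [0.804, 0.920]. OR4K15 made up most of these, at 2541 RPKM with and 1305 without the drug in the mutant, and 455 with and 559 without in wild type. OR11L1 was at 61.3 with and 6.83 without in the mutant (2.94 [1.68, 5.04]), and at 63.4 and 63.3 in wild type (0.02 [−0.30, 0.33]). OR10J3 differed in wild type (3.76 [3.10, 10.99]), from 43 reads with and 1 without the drug. In the mutant it was at −0.65 [−3.19, 1.66], from 4 reads with and 4 without. OR10A3 in wild type had an interval that held 0 (1.12 [−0.12, 3.35]). OR52N2 was at 0.91 in the mutant and 0.47 in wild type.

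The pathway of GDF2 was measured through 13 tested receptors, SMAD transducers and targets of 17 listed. ID2 and ID3, transcription regulators induced by BMP ligands, were at 1541 and 889 RPKM with and 1426 and 653 without erythromycin in the mutant. Their log2 ratios were 0.06 and 0.39 in the mutant and −0.06 and −0.01 in wild type. SMAD9, a transducer, was at −0.57 in the mutant and −0.05 in wild type. The inhibitory SMAD6 (2.05 [0.64, 4.71]) and SMAD7 (1.78 [0.03, 5.31]) were at least 2-fold higher in the mutant, from few reads, and at −0.07 and 0.20 in wild type. Over the list the median was −0.04 in the mutant and −0.06 in wild type. Of 28 other ligands listed, 5 were tested, with TGFB1 at −0.27 and 0.38, BMP7 at 0.22 and 0.49 and GDF11 at −0.31 and −1.04 in mutant and wild type. BMP4 (1.43 [0.51, 3.51]) and GDF15 (1.10 [−0.24, 3.68]) were at least 2-fold higher in wild type, while in the mutant GDF15 was at −1.90 [−4.73, −0.13] and BMP4 at −0.17.

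Of 15 listed genes for interleukin-1 family members and receptors 1 was tested, the inhibitory receptor SIGIRR, at 0.79 in the mutant and 0.06 in wild type. Targets of NF-kappaB, the factor that interleukin-1 activates, numbered 6 tested of 18 listed, with medians of −0.02 in the mutant and 0.18 in wild type. SOD2 (0.31 and 0.15), IER3 (0.36 and 0.20) and NFKBIA (0.07 and −0.26) led them by level.

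Of 9 listed CEACAM and PSG genes 0 were tested, and they had 14 reads with and 7 without erythromycin in the mutant and 10 with and 7 without in wild type. The 2 other beta-defensins listed had 1 read with and 0 without the drug in the mutant, and 0 with and 2 without in wild type, while DEFB118 had 194 and 37, and 40 and 11. Of 14 listed CACNG and AMPA receptor genes only CACNG3 was tested, at 0.33 in the mutant and −1.39 [−2.36, −0.73] in wild type. TMEM178A, the paralog of TMEM178B, was at 1.49 [0.44, 2.86] in the mutant and 0.25 [−0.35, 0.87] in wild type. Forkhead genes other than FOXN2 were tested 22 times, with medians of −0.11 in the mutant and 0.04 in wild type. FOXO4 passed 2-fold in the mutant (1.02 [−0.66, 3.70]), with an interval that held 0, and FOXC1 (−0.19 and 0.04) and FOXM1 (0.63 and 0.06) lay below it.

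Tested neighbours on the chromosome had median ratios near those of all genes. The nearest listed genes on either side came to 20, of which 11 were tested, and their median log2 ratio was 0.03 in the mutant and 0.07 in wild type. Of the 11, 0 reached 2-fold in both genotypes (0.447% of all tested genes did), 0 in wild type (1.73%) and 1 in the mutant (6.22%), counts near the background for so few genes. The 1 was the transcribed pseudogene FRG1BP, 969 kb from DEFB118, at 1.91 in the mutant and −1.60 in wild type, named after its values were seen. GDF2 stood at 559 RPKM in the treated mutant between GDF10, 8.94 kb before it, and RBP3, 22.1 kb after it, both at 0 there. CACNG8 lies between CACNG7 and CACNG6, which were at 0 and 1.29 RPKM in the same library, where CACNG8 was at 28.4. UBB, a ubiquitin gene 32.8 kb before TRPV2, was at 1088 RPKM with and 1376 without the drug in the mutant (log2 ratio −0.39). RPS19, a ribosomal protein gene after CEACAM3, was at 5194 with and 4906 without it (0.03). Among untested neighbours, PPP1R21, after FOXN2, was at 8.16 RPKM with and 2.12 without the drug in the mutant. In wild type it was at 4.34 and 2.16. LRRC75A, after TRPV2, was at 4.86 with and 7.99 without in the mutant, and at 3.40 and 0.652 in wild type. Both had few reads and were named after their values were seen.

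**Figure D4:**
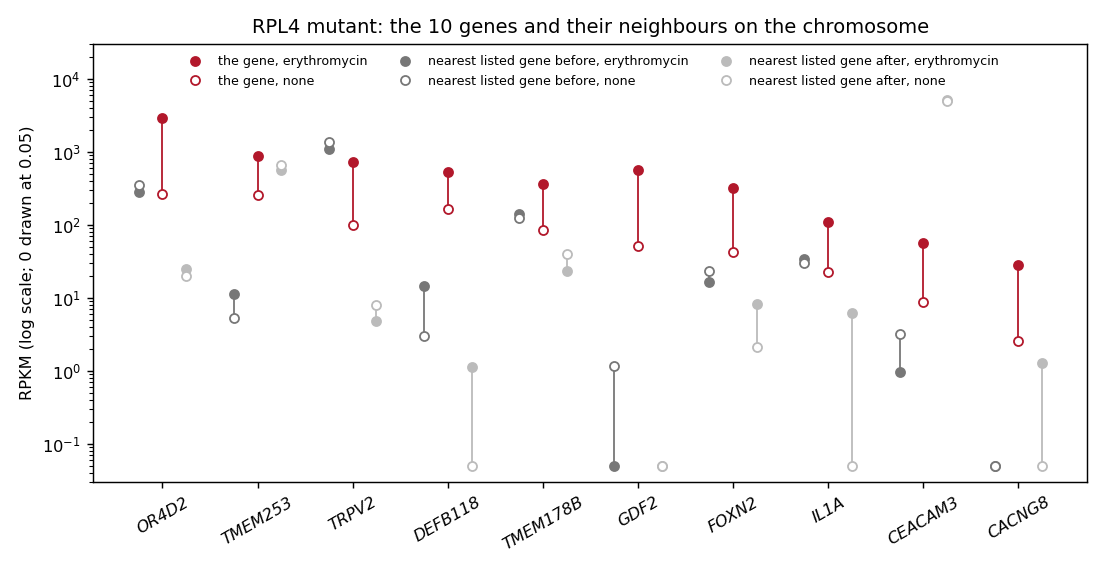
RPKM (log axis, with 0 drawn at 0.05) in the RPL4 mutant with erythromycin (filled) and without (open) for each of the 10 genes (red) and the nearest listed gene before it (dark grey) and after it (light grey) by coordinate. GDF2 goes with neighbours at or under 1.15 RPKM, CEACAM3 with RPS19 at 5194 and 4906 RPKM.

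Sequence shared with other genes could let reads be counted for the wrong one. Of all 25-base stretches of the coding sequences, 0% were found in GENCODE transcripts of other genes for GDF2, TMEM178B, IL1A, FOXN2 and DEFB118, on either strand. On the same strand the share was 5.46% for TRPV2, 6.67% for OR4D2 (nearly all with its paralog OR4D1, which was listed in no library), 5.42% for CACNG8 (nearly all with MIR935, a microRNA within it) and 30.7% for CEACAM3. The listed partners of CEACAM3, CEACAM5 and CEACAM6, were at 2.86 and 0.973 RPKM in the treated mutant, where CEACAM3 was at 57.0. TMEM253 lies opposite ZNF219, whose exons cover 543 of its coding bases. Reads of overlapping genes on opposite strands cannot be told apart where counting does not use strand, which the sources used here do not state. The listed ZNF219 transcript was at 11.1 RPKM with and 5.34 without erythromycin in the mutant. In wild type it was at 2.71 with and 3.73 without. That transcript lies 0.297 kb before TMEM253 by coordinate and does not overlap it. Its level therefore does not measure reads on the shared bases, and their part in the TMEM253 counts was not tested. The GENCODE transcripts were searched and the rest of the genome was not. Where along the coding sequence the reads lie was not analysed, as the files give 1 value per transcript.

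The 10 coding sequences were also described by traits that do not come from the footprint levels. The set is mostly of tissue-restricted genes, and whether the traits go with that kind of gene was not tested. Their median length was 904.5 bases (372 to 2295), against 1311 for 9540 tested coding sequences, whose middle 50% lie between 819 and 2050 bases. GC content ranged from 42.1% in FOXN2 to 71.3% in CACNG8, with a median of 56.4% against 52.2%. A stretch of 19 encoded residues with a mean Kyte-Doolittle hydropathy above 1.6, as membrane spans and signal peptides have, occurred in 8 of the 10 and in 29.7% of tested genes. Such a stretch began within the first 30 codons in 6 of the 10, GDF2, OR4D2, TMEM253, TMEM178B, CACNG8 and DEFB118, and in 10.7% of tested genes. TRPV2 held 7 separate stretches, and IL1A and FOXN2 held 0. Macrolides stall bacterial ribosomes at several motifs, among them a basic residue, any residue and a basic residue. Codons for such a run occurred 1.01 times per 100 residues in the median of the 10 and 1.48 times in the median tested gene. TMEM178B had the most, at 2.38, and CEACAM3 and DEFB118 had 0.

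Promoters were matched by symbol for 7 of the 10 genes in RefSeq's sequences (GRCh38.p14, 250 bases before to 50 after a start). TRPV2, CACNG8 and FOXN2 had no entry. The 7 genes had 9 promoters, with more than 1 for IL1A and for TMEM253. A gene was counted if any of its promoters matched, while the shares in brackets are per promoter. Both strands were searched for AP-1 (TGACTCA), CRE (TGACGTCA), the TATA box (TATAAA), the CCAAT box (CCAAT), the D-box (TTATGTAA) and the E-box (CACGTG). For NF-kappaB a single exact decamer was searched, and other forms of its site were not. No motif was held by more than 2 of the 7 genes. AP-1 was in IL1A (4.95% of 35116 promoters hold it), TATAAA in GDF2 and IL1A (11.5%), and CCAAT in DEFB118 and IL1A (34.6%). CRE (1.85%), NF-kappaB (0.191%), the D-box (0.886%) and the E-box (7.26%) were in 0. The promoters of IL1A, which held the most matches, and of GDF2 are shown, 5′ to 3′ on the gene's strand, with matches in capitals. The IL1A promoter shown held TATAAA, and its other promoter held AP-1 and CCAAT only. IL1A is at chr2:112784444-112784743, minus strand, and GDF2 at chr10:47322204-47322503, plus strand.
IL1A: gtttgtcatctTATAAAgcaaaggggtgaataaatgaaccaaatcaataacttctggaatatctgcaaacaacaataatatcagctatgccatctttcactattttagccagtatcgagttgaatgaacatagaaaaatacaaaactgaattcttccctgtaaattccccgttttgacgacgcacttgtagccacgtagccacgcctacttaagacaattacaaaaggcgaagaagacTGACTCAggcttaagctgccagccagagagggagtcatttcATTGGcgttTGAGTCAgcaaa
GDF2: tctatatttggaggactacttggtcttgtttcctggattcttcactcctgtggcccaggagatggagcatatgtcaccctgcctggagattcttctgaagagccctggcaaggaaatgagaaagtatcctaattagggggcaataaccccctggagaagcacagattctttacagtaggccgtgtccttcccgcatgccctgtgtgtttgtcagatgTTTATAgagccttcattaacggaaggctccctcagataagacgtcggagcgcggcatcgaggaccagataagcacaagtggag

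Genes outside the set with a similar course were named by distance. Each gene's log2(RPKM + 1) in the 4 libraries, less its own mean, was compared with the median course of the 10 among genes that averaged 20 RPKM or more. The nearest were TMEM43 (Euclidean distance 1.01), TMEM184A (1.04), METTL24 (1.04), BHLHE41 (1.15), GSDMC (1.16) and ASB11 (1.16). The 10 themselves lay between 0.50 (TRPV2) and 2.49 (DEFB118), so that these 6 lay within the range of the set. TMEM43, a protein of the inner nuclear membrane, was at 193 RPKM with and 48.1 without erythromycin in the mutant and at 46.5 with and 29.4 without in wild type. BHLHE41, a repressor of the circadian clock, was at 356 and 114, and at 72.4 and 37.5. TMEM184A (2.22 in the mutant and 1.13 in wild type) and METTL24 (2.44 and 1.12) reached 2-fold in both. ASB11 (3.98 and 0.89), GSDMC (1.89 and 0.65), TMEM43 (1.93 and 0.66) and BHLHE41 (1.58 and 0.95) were so in the mutant. A likeness over 4 libraries says nothing of shared function.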

How the data were processed

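Ribosome footprints were measured in 4 HEK293 libraries, grouped by the genotype and treatment in the labels. The deposited files give 1 RPKM value per Ensembl transcript, made by the authors; cutadapt, STAR and GRCh38 are named in the submitters' processing notes, without versions, and the counter is not given in the sources used here. Transcripts that a file does not list were taken as 0. Of 16292 transcripts, 16172 were matched to GENCODE 29.

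RPKM times coding length gave whole reads, within 0.001, for 99.2% of transcripts with a coding length in each library, and totals were read from the commonest small value. Ratios are of log2(RPKM + 1) for transcripts with a mean of at least 5 RPKM, centred on their median (0.05 in the mutant, −0.02 in wild type, 0.06 with and −0.03 without the drug). Ratio intervals are exact conditional (Clopper-Pearson) intervals of reads, and levels have exact Poisson ones. The ratios and their intervals were tested on simulated data, the intervals only at read counts well above the lowest ones here. The Poisson intervals were not tested so. With 1 library per group no test was made. The floor of 3 reads equals 1.01 to 4.96 RPKM for a 1 kb transcript.

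The 10 genes and the gene lists were chosen with earlier results of these data known. All 10 are named. For each list, genes at least 2-fold higher in both genotypes and up to 3 with the highest mean are named, with those past 2-fold added after their values were seen. One list gene is not reported here. Alternatives changed the pseudocount, the filter, the scaling and the depth. Analyses used Python 3.11.15, pandas 2.3.3 and scipy 1.17.1.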

Additional observations from a re-analysis of the deposited data

Results flagged for a closer look

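Among the list genes named, 4 had erythromycin ratios of opposite sign in the genotypes, with counting intervals on either side of 0. The difference was not tested, as each group has 1 library. FOXE3 had a log2 ratio of 0.43 in the mutant and −0.70 in wild type. OR4K15, an odorant receptor, was at 0.91 in the mutant and −0.28 in wild type. The HEK293 markers VIM (−0.28 in the mutant, 0.21 in wild type) and KRT18 (−0.53 and 0.15) differed by less.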

How the results depend on the processing

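The 10 genes kept the direction of both erythromycin ratios under all 8 alternatives, except that CACNG8 was left out under the highest filter. Of 316 single values, 309 stayed within their counting interval and 7 moved. IL1A in wild type was at 0.79 in reads thinned to 588052 per library, so that 9 of 10 were then at least 2-fold higher in both genotypes. With genes averaging 20 RPKM or more, which leaves out CACNG8, the median of mutant over wild type with the drug was 2.24. The count of the 10 at least 2-fold higher in the mutant without erythromycin, and in both treatments, was 4 or 5, as OR4D2 crossed the threshold. Counts over all genes depended on the settings. With a pseudocount of 5 RPKM, 315 genes were at least 2-fold higher with erythromycin in the mutant, 72 in wild type and 20 in both, and 357 in the mutant over wild type with and 270 without the drug. In the same order the counts were 1198, 362, 108, 1184 and 1120 for genes averaging 1 RPKM or more, 184, 65, 19, 263 and 179 for those averaging 20 or more, and 1801, 453, 120, 1562 and 1513 with no filter. In thinned reads 489 were higher in wild type, 97 in both, and 776 in the mutant without the drug. No paired analysis was possible because each group has 1 library and the labels link no libraries. Low depth in the untreated mutant limits CACNG8 (2 reads), CEACAM3 (4) and IL1A (11).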
